A study of Mus musculus with 18 samples.

Results

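The renin-angiotensin system was read through 9 genes, *Ren1*, *Agt*, *Ace*, *Agtr1a*, *Agtr1b*, *Agtr2*, *Atp6ap2*, *Enpep* and *Akr1b7*, each represented by its row among the 28856 transcript clusters of the deposited table. A transcript cluster is the set of probes that the array assigns to a gene, and each of the 9 symbols occurred in a single one. *Ren1* shares its transcript cluster with *Ren2*, the copy of the renin gene that some mouse strains carry, and signals of the copies cannot be told apart. Which copies the mutant and control mice carried is not given. A difference in gene copies between groups therefore cannot be told from a difference in expression. The study has 6 groups of 3 samples, and the table has an Affymetrix Mouse Gene 1.0 ST array for each of the 18. Podocytes, mesangial cells and endothelial cells of the glomerulus were sorted for GFP at 5 weeks of age from mice labelled CD2AP-/- and from controls. Each cell type was marked by a GFP transgene of its own, *Meis1-GFP* for mesangial and *Tie2-GFP* for endothelial cells, so cell type and reporter line cannot be told apart. The mutant mice are of the strain B6.129X1-Cd2ap tm1Shaw/J, whose *Cd2ap* allele is carried in the germline and so in all cells, a model of focal segmental glomerulosclerosis. Controls are labelled wild type, but the names of the mesangial control columns carry a plus and a minus sign, and whether those mice were heterozygous is not known. The groups are called control or wild type by these labels, and arrays within a group are called A, B and C.

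Renin, made by juxtaglomerular cells of the afferent arteriole and stored in their granules, cuts angiotensinogen to angiotensin I, and the peptidase ACE on endothelial surfaces turns this into angiotensin II. Angiotensin II acts mainly on type 1 receptors, encoded in mice by *Agtr1a* and *Agtr1b*, to contract arterioles and mesangial cells, and the type 2 receptor of *Agtr2* often opposes it. Aminopeptidase A, encoded by *Enpep*, removes the first residue of angiotensin II and is abundant on podocytes. *Atp6ap2* encodes the prorenin receptor, which is also an accessory protein of the vacuolar proton pump, and *Akr1b7* encodes an aldo-keto reductase known as a marker of renin cells.

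**Figure D1:**
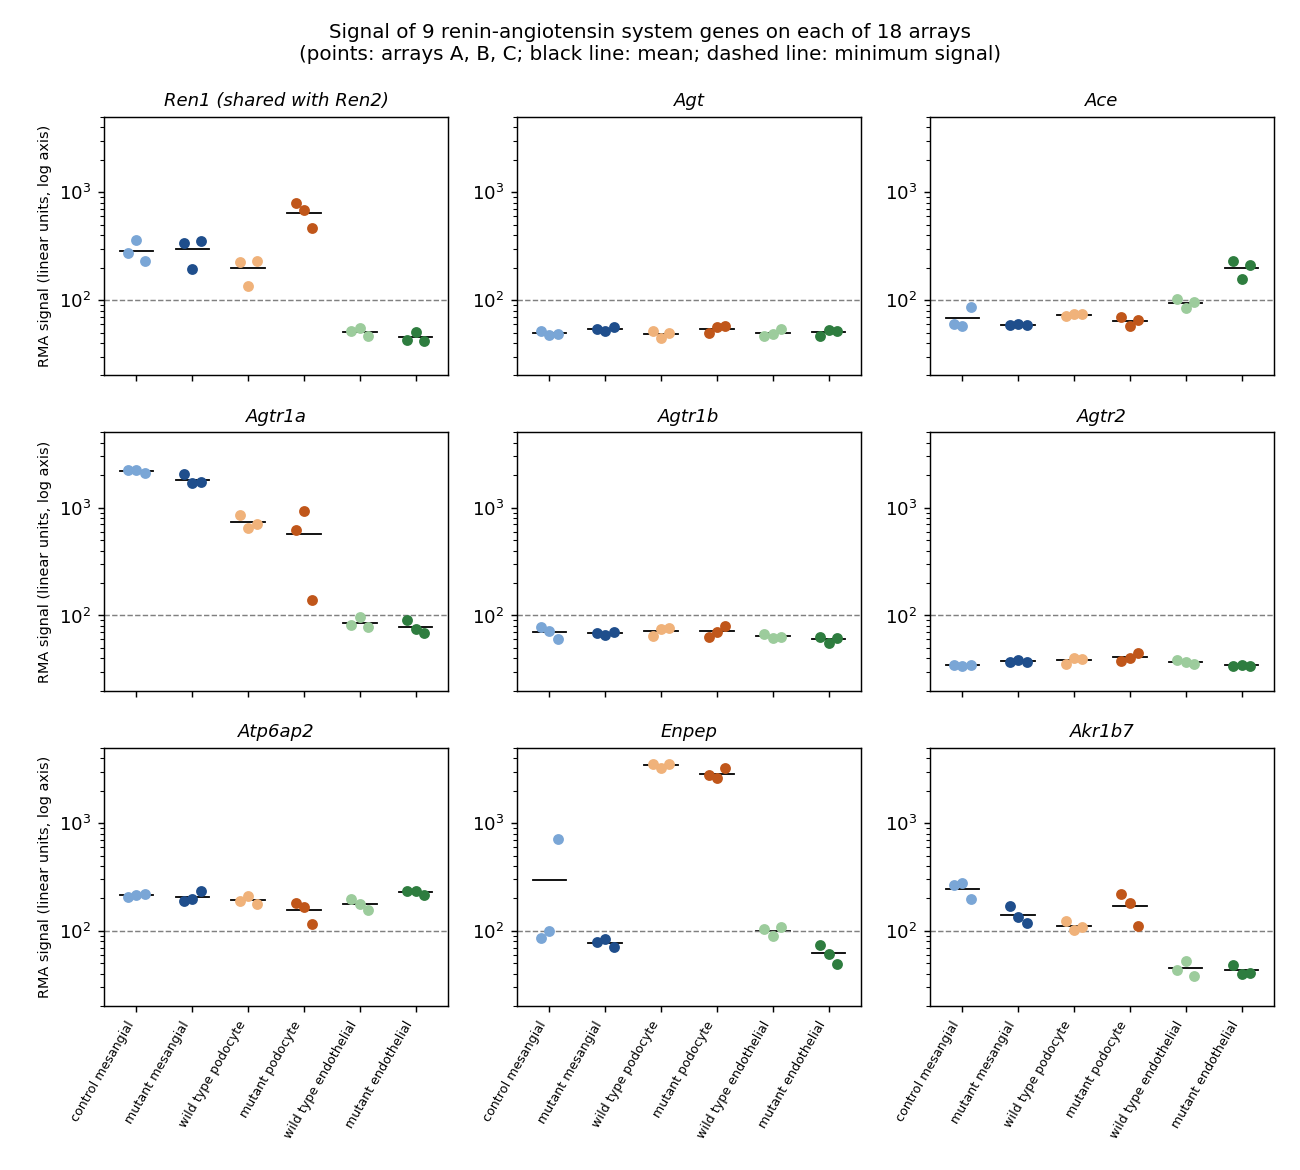
Signal of each member on each of the 18 arrays, with the groups along the horizontal axis and linear RMA signal on a log axis. Points are arrays, black lines are means of 3 arrays and the dashed line is the minimum signal of 100. *Agt*, *Agtr1b* and *Agtr2* lie below 100 on every array, *Agtr1a* is highest on mesangial arrays and *Enpep* on podocyte arrays.

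Signals are linear RMA intensities, and 100 was the minimum signal taken from the study's screen. 6 of the 9 members reached it on at least 1 array and 3 on none, beside 53.1% of all transcript clusters that were below 100 on every array. The 6 members differed widely in their place. *Agtr1a* was highest on mesangial arrays, *Enpep* on podocyte arrays and *Ace* on endothelial arrays, while *Atp6ap2* was above 100 on all 18. Signals of different transcript clusters are not compared with each other, since probes differ in brightness. In sorted bulk samples, fewer cells of a type and less RNA per cell cannot be told apart.

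Markers of the other cells of the kidney were read on every array. Marker sums are compared only between arrays, and the brightest genes of a list weigh most in them. The summed signal of 8 podocyte markers was 13499.5 to 15211 on wild type and 12488 to 14496 on mutant podocyte arrays, and that of 7 endothelial markers was 14786 to 16503 and 16260.1 to 17106 on endothelial arrays. The 5 mesangial markers summed to 6360.0 to 7229 on control and 4353 to 4869 on mutant mesangial arrays, but also to 2082 to 2764 on wild type podocyte arrays. Control mesangial array C stood apart, with *Podxl* at 725, *Kdr* of endothelium at 935 and *Kap* of proximal tubule at 841. Controls A and B gave at most 82.4, 81.1 and 51.7. *Podxl* is listed as a podocyte marker, but its mean on wild type endothelial arrays was also high, at 1003. Mutant podocyte array C stood apart by low sums, with mesangial markers summing to 689 and endothelial markers to 656. Red blood cell markers summed to 5377, 692 and 202 on mutant podocyte arrays A, B and C. Distal tubule markers summed to 354, 753 and 388 on wild type podocyte arrays A, B and C. The lowest Pearson's r of log2 signals within any group was 0.967, between mutant podocyte arrays A and C. *Cd2ap*, the mutated gene, was 819, 870.4 and 797 on mutant and 922, 1037 and 1123 on control mesangial arrays and 1512, 1503 and 1478 on mutant and 2108, 1670.4 and 1546 on wild type podocyte arrays, lower on every mutant array in both, at -0.31 (adjusted p = 0.151) and -0.23 (adjusted p = 0.504) on the log2 scale. On endothelial arrays it was 891, 966 and 920.4 for mutant and 839.8, 859 and 757 for wild type mice, higher on every mutant array, at 0.18 (adjusted p = 0.336). It is not known here whether its probes lie in the deleted part, so directions rest on the array labels.

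**Figure D2:**
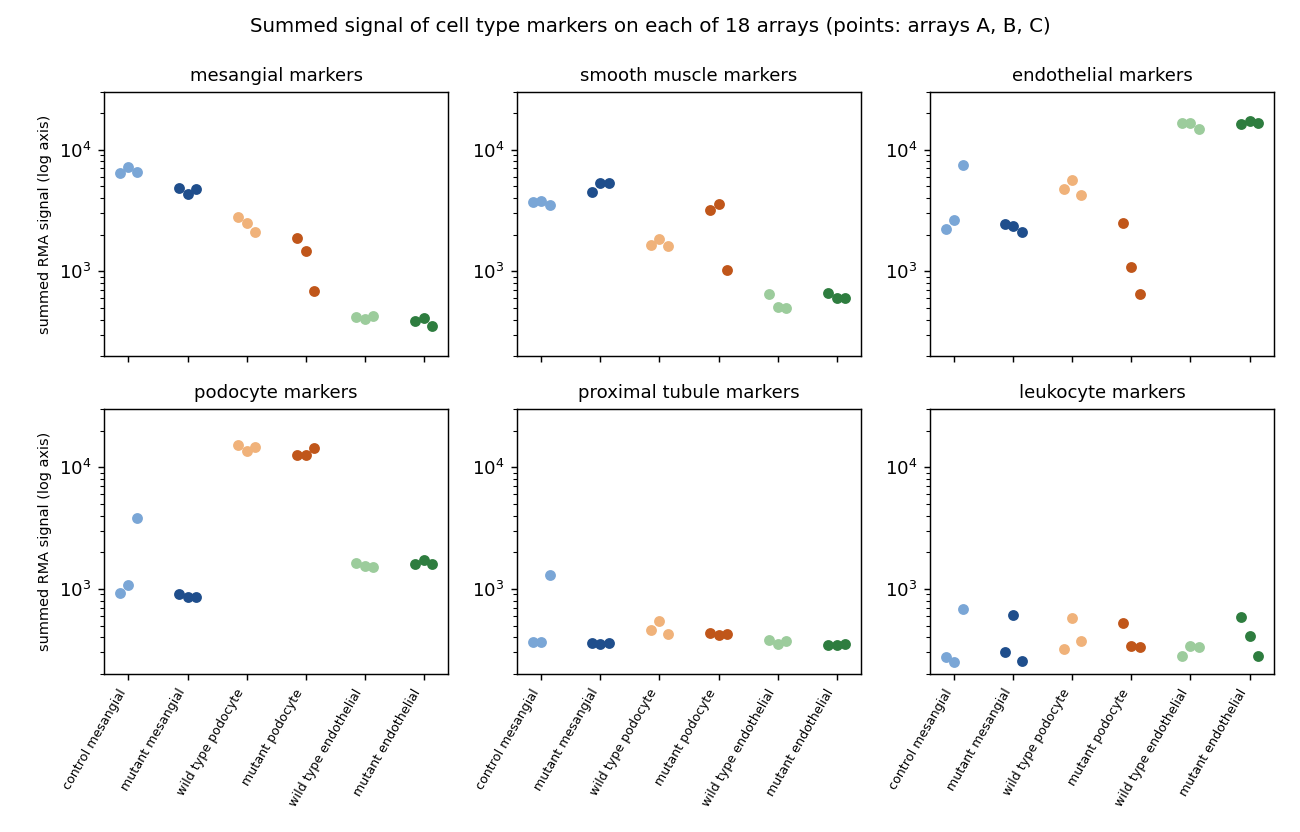
Summed linear signal of 6 marker lists on each array, on a log axis, with the groups along the horizontal axis and points for arrays A, B and C. Control mesangial array C is high for podocyte, endothelial and proximal tubule markers, and mesangial markers on podocyte arrays lie between those of mesangial and endothelial arrays.

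Renin is the enzyme that limits the rate of the pathway. Control mesangial arrays gave *Ren1* signals of 275, 359.9 and 231, and wild type podocyte arrays gave 228, 134 and 228. Wild type endothelial arrays gave 51.9, 54.8 and 46.6, all below the minimum. The endothelial arrays were therefore lower than every array of both other cell types, and mesangial and podocyte controls did not overlap but lay close together. *Ren1* was higher in mesangial than in endothelial controls by 2.48 on the log2 scale (standard error 0.22, adjusted p = 2.93e-05), and higher in podocytes than in endothelial cells by 1.91 on the log2 scale (standard error 0.22, adjusted p = 0.000135). Podocytes minus mesangial cells gave -0.57 (adjusted p = 0.0833), which did not pass the threshold of an adjusted p under 0.05 with all arrays. It passed without control mesangial array C (-0.72, adjusted p = 0.0455).

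*Ren1* signals stood highest on podocyte arrays labelled mutant, at 789, 691 and 467. All 3 exceeded every wild type podocyte array, and all 3 exceeded every mesangial array of either genotype. The means were 649 ± 165 (SD, n = 3) in mutant and 197 ± 54.0 (SD, n = 3) in wild type podocytes, a ratio of 3.32 from the fit. The log2 difference was 1.73 (standard error 0.27) with an unadjusted p of 0.000255 and an adjusted p of 0.118 from limma. *Ren1* thus passed the study's screen, an unadjusted p under 0.05 with a fold change over 1.5, but not the adjusted threshold. With 1 array left out the log2 difference lay in the range 1.48 to 1.95 and the adjusted p between 0.0464, without mutant array A, and 0.383, without wild type array A, and mutant array A was the only array whose omission took it under 0.05. It was 0.00198 when all 18 arrays shared 1 estimate of the spread and 0.190 with no minimum signal. That shared estimate takes in endothelial arrays, on which *Ren1* was below the minimum and varied little. The tests of differences in genotype effect also pool the spread of all 18 arrays.

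On mesangial arrays the genotypes overlapped for *Ren1*. Arrays labelled mutant gave 336, 194 and 357, within and around the control signals, with a log2 difference of 0.00993 (standard error 0.27, adjusted p = 0.987). Its sign turned in 4 of the 6 fits that left out 1 array. On endothelial arrays labelled mutant *Ren1* was 42.7, 50.7 and 41.8, below the minimum on all 3, and no test was made there. The genotype difference in *Ren1* was larger in podocytes than in mesangial cells by 1.72 on the log2 scale (standard error 0.36, adjusted p = 0.0392) in the test of that difference. Leaving out any of mutant mesangial B, control mesangial A or B, mutant podocyte B or wild type podocyte A, B or C took this adjusted p to between 0.0506 and 0.105, and using no minimum signal took it to 0.0822. Endothelial cells minus podocytes gave -1.91 on the log2 scale (standard error 0.36, adjusted p = 0.0237), in which the endothelial side lies below the minimum signal, and the adjusted p was 0.0632, 0.0543 and 0.0542 without mutant endothelial A, wild type endothelial B and wild type endothelial C.

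Markers of neighbouring cells were read on the same podocyte arrays. The 5 mesangial markers summed to 1866, 1457 and 689 on mutant and 2764, 2468 and 2082 on wild type podocyte arrays, lower on every array labelled mutant, where *Ren1* was higher. 3 of these 5 markers passed the study's screen as lower and none the adjusted threshold. The 7 endothelial markers summed to 2484, 1091 and 656 on mutant and 4709, 5625 and 4224 on wild type arrays, and all 7 passed the screen as lower and none the adjusted threshold. Of 4 leukocyte markers tested, *Csf1r* alone passed the screen, as higher, at 134, 101 and 89.5 on mutant against 59.0, 77.9 and 73.1. Of 4 distal tubule markers tested, *Calb1* alone passed it, as lower, at 25.8, 27.2 and 30.3 against 51.4, 173 and 74.1. None of either list passed the adjusted threshold. Over all transcript clusters tested in podocytes, 5.61% passed the screen in either direction. The 6 smooth muscle markers, genes of the arteriole wall in which renin cells lie, summed to 3207, 3554 and 1031 against 1644, 1847 and 1614. *Rgs5* among them was also bright on mesangial arrays, with a mean of 2249 in controls. Of the 5 of them tested, 1 passed the screen as higher, 0 as lower and 0 the adjusted threshold, and all 5 overlapped between genotypes. *Tagln* was 900.1, 499 and 96.9 against 122, 118 and 115, *Acta2*, which passed the screen, was 1050.3, 781 and 247 against 266, 264 and 209, and *Rgs5* was 747, 1632 and 300.2 against 857, 1010.4 and 869. *Tagln* and *Acta2* were high on mutant arrays A and B, where *Ren1* was 789 and 691. On mutant array C, *Tagln* was below every wild type podocyte array, *Acta2* was within their range and *Ren1* was 467. The part of smooth muscle or other cells in the *Ren1* signals was not tested.

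*Akr1b7*, like *Ren1* and *Agtr1a*, reached the minimum on every mesangial and podocyte array and on no endothelial array. Control mesangial arrays gave 264, 276 and 198, wild type podocyte arrays gave 123, 101 and 109 and wild type endothelial arrays gave 43.6, 53.1 and 38.5. These groups did not overlap, and the endothelial arrays were all below the minimum. *Akr1b7* was higher in mesangial cells than in podocytes by 2.20-fold, with podocytes minus mesangial cells at -1.14 on the log2 scale (standard error 0.16, adjusted p = 0.000598). Mesangial minus endothelial cells gave 2.45 on the log2 scale (standard error 0.16, adjusted p = 3.34e-06), and podocytes minus endothelial cells gave 1.31 on the log2 scale (standard error 0.16, adjusted p = 0.000171).

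*Akr1b7* signals were lower on mesangial arrays labelled mutant than on controls. The mutant arrays gave 169.8, 133 and 119, all below the lowest control. Their log2 difference was -0.81 (standard error 0.18), which passed the study's screen with an unadjusted p of 0.00290 but not the adjusted threshold (adjusted p = 0.0680). Without control array C, which stood apart, it was -0.96 with an adjusted p of 0.0430. On the same mesangial arrays 4 of 5 mesangial markers were lower and 1 higher without overlap between genotypes, and among 7 endothelial markers *Tek* (-1.19, adjusted p = 0.0497) and *Ehd3* (-0.98, adjusted p = 0.0121) fell, beside 28.6% of all transcript clusters without overlap and 2.92% past the adjusted threshold in either direction. The part of the cell makeup in the *Akr1b7* signals was not tested. Podocyte arrays labelled mutant gave *Akr1b7* signals of 219, 183 and 112, array C among the wild type signals and A and B above them. Their log2 difference was 0.57 (standard error 0.24, adjusted p = 0.346), and 0.85 (adjusted p = 0.129) without mutant array C. The test of the difference between these effects gave 1.38 on the log2 scale (standard error 0.30, adjusted p = 0.0476) for podocytes minus mesangial cells. That call was lost without mutant mesangial B or C, control mesangial A or B, mutant podocyte B or any wild type podocyte array, with adjusted p between 0.0727 and 0.123, and also with no minimum signal (0.0945), array medians subtracted (0.0653) or quantile normalization (0.0546). On endothelial arrays labelled mutant *Akr1b7* was 48.6, 40.0 and 40.9, below the minimum throughout. Of its close relatives, *Akr1b8* was below 100 on every array, and neither *Akr1b3* nor *Akr1b10* passed the adjusted threshold or the screen for genotype in any cell type. *Akr1b3* has several transcript clusters, of which the brightest was read, and it shares probes with other loci.

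**Figure D3:**
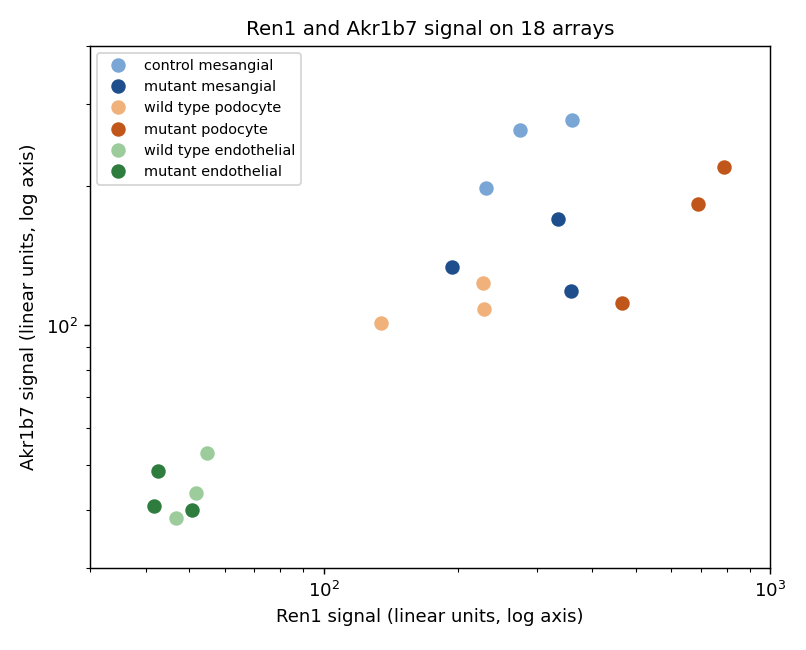
*Ren1* signal against *Akr1b7* signal on the 18 arrays, both on log axes in linear RMA units, with 1 point per array coloured by group. Endothelial arrays lie at the bottom left, mutant podocyte arrays reach the highest *Ren1* signals and control mesangial arrays A and B the highest *Akr1b7* signals.

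Across the 18 arrays Pearson's r between the log2 signals of *Ren1* and *Akr1b7* was 0.90, and after subtraction of each group's mean it was 0.58. The likeness was not particular to *Ren1*, since *Agtr1a* and *Akr1b7* gave 0.91 and 0.76. These values describe 18 arrays that share cell types and genotypes within groups. *Ren1*, *Akr1b7* and *Agtr1a* were below 100 on every endothelial array, and the part of those arrays in the r over all 18 was not tested. The 5 named transcript clusters most like *Ren1* over the 18 arrays, among those with 1 symbol and a signal of at least 100 on some array, were *Ccdc3*, *Axl*, *Tpm1*, *Cldn1* and *Kank2*, with r from 0.95 to 0.96. Within groups the most alike to *Ren1* were *Zfp382*, *Fam19a1*, *Zfp37*, *Kdm1a* and *Ak3*, with r from 0.83 to 0.90. Among the 5 most like *Akr1b7* over the 18 arrays were *Mustn1*, *Timp2*, *Ctgf* and *Ptpn13*, with r from 0.94 to 0.95. Within groups the 5 were *Map4k3*, *Avl9*, *Nae1*, *Chd2* and *B3galtl*, with r from 0.85 to 0.92.

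ACE is the peptidase that makes angiotensin II, and it is anchored to the surface of endothelial cells. *Ace* signals were 229.8, 156 and 211 on endothelial arrays labelled mutant and 103, 84.8 and 95.2 on wild type endothelial arrays. Every mutant array was above every wild type array, and only wild type array A reached the minimum of 100. *Ace* rose in endothelial arrays labelled mutant, with a log2 difference of 1.06 (standard error 0.16, adjusted p = 0.0189), a 2.09-fold difference. The median log2 difference over all transcript clusters tested in endothelial cells was 0.0667. The call was lost without mutant array A (adjusted p = 0.0777), mutant array C (0.0694), wild type array B (0.0827) or wild type array C (0.0972), and with no minimum signal (0.0720), while the log2 difference stayed between 0.95 and 1.23 in every fit that left out 1 array.

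Outside the endothelium *Ace* signals were dim. They were 58.6 to 60.4 on mutant and 57.2 to 87.3 on control mesangial arrays, and 57.6 to 69.1 on mutant and 70.6 to 75.1 on wild type podocyte arrays. No array of these cells reached 100, so *Ace* was not tested for genotype in them. *Ace* entered the comparison of control cell types through wild type endothelial array A alone, and without that array it was not tested. Mesangial minus endothelial controls gave -0.49 on the log2 scale (standard error 0.15, adjusted p = 0.0366), against dim signals. That call was lost without wild type endothelial C (0.0937), control mesangial A (0.113) or control mesangial B (0.127). Podocytes minus endothelial cells gave -0.36 (adjusted p = 0.0952). The genotype difference of *Ace* was larger in endothelial than in mesangial cells by 1.24 on the log2 scale (standard error 0.22, adjusted p = 0.0121) and larger than in podocytes by 1.26 on the log2 scale (standard error 0.22, adjusted p = 0.0169), both against signals below the minimum. Without mutant endothelial A the latter adjusted p was 0.0519, and the former stayed under 0.05 in every fit that left out 1 array.

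Markers of other cells were read on the same endothelial arrays. The 7 proximal tubule markers summed to 344, 349 and 354 on mutant and 378, 354 and 371 on wild type endothelial arrays, and none of the 7 reached 100 on any of the 6. The 5 leukocyte markers summed to 584, 411 and 279 on mutant and 283, 338 and 332 on wild type arrays. The macrophage gene *Lyz2* was 202, 134 and 54.1 on mutant and 53.0, 92.9 and 93.4 on wild type arrays, high on mutant A and B and within the wild type range on mutant C. The part of leukocytes in the *Ace* signals was not tested.

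Angiotensin II receptors were represented by *Agtr1a*, the main type 1 receptor of the mouse kidney. Control mesangial arrays gave 2231, 2241 and 2093, wild type podocyte arrays gave 849, 645 and 699 and wild type endothelial arrays gave 82.2, 97.0 and 77.9. The cell types did not overlap, and the endothelial arrays were all below the minimum, so differences from them are against dim signals. *Agtr1a* was higher in mesangial than in endothelial controls by 4.68 on the log2 scale (standard error 0.12, adjusted p = 2.78e-08), and lower in podocytes than in mesangial cells by 3.01-fold, at -1.59 on the log2 scale (standard error 0.12, adjusted p = 2.12e-05). Podocytes minus endothelial cells gave 3.09 on the log2 scale (standard error 0.12, adjusted p = 1.94e-07).

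Mesangial arrays labelled mutant gave *Agtr1a* signals of 2034, 1700.2 and 1727, all below the lowest control, with a log2 difference of -0.27 (standard error 0.10) and an adjusted p of 0.184. Without control array C these were -0.30 and 0.226. Of the 5 mesangial markers, 4 were lower on every mutant mesangial array than on any control and 1, *Meis1*, was higher, at 321, 271 and 231 against 209.7, 224 and 189. *Pdgfrb* and *Itga8* fell at the adjusted threshold, and the median log2 difference of the 5 was -0.58. Over all transcript clusters tested 28.6% did not overlap, 2.92% passed the adjusted threshold and the median was -0.0249. Podocyte arrays labelled mutant gave *Agtr1a* signals of 619.6, 941 and 139, with A and B near the wild type signals and C far below them. The log2 difference of -0.75 (adjusted p = 0.612) turned to 0.0729 without mutant array C. On that array *Itga8*, a mesangial integrin, was 134, against 724 and 472 on arrays A and B and 1153, 1152 and 869 on wild type podocyte arrays, and the part of mesangial cells in the podocyte signals of *Agtr1a* was not tested. On endothelial arrays labelled mutant *Agtr1a* was 91.8, 74.3 and 68.3, below the minimum. *Agtr1b* lay between 55.1 and 80.5 on all 18 arrays, and *Agtr2* was at 33.6 on its lowest array and below 100 on all, so neither could be compared. *Agt*, the substrate of renin, lay between 44.4 and 57.5.

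Aminopeptidase A breaks down angiotensin II. *Enpep* signals were 3526, 3223 and 3566 on wild type podocyte arrays, 85.2, 98.9 and 709 on control mesangial arrays and 104, 89.8 and 108 on wild type endothelial arrays. Podocyte arrays were far above all others, and control mesangial array C was above A and B. *Enpep* was higher in podocytes than in endothelial cells by 5.10 on the log2 scale (standard error 0.65, adjusted p = 0.000229), a difference against dim signals, with endothelial arrays at or near the minimum. Podocytes minus mesangial cells gave 4.24 on the log2 scale (standard error 0.65, adjusted p = 0.00103), and 5.23 (adjusted p = 1.44e-08) without control mesangial array C. *Podxl* was also raised on that array, at 725, but it is not particular to podocytes, with a mean of 1003 on wild type endothelial arrays. *Kdr* of endothelium was raised there too, at 935. The part of podocytes in the *Enpep* signal of that array was not tested.

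*Enpep* signals were lower on arrays labelled mutant than on controls in each cell type, but no test passed the adjusted threshold. Mutant podocytes gave 2779, 2628 and 3218, all below the lowest wild type array but C only just, with a log2 difference of -0.26 (standard error 0.13, adjusted p = 0.404). The 8 podocyte markers had a median log2 difference of -0.10 in the same comparison. Mutant endothelial arrays gave 74.3, 61.4 and 49.7, where wild type arrays A and C were just above 100, with -0.72 (standard error 0.15, adjusted p = 0.0733), which passed the study's screen. Mutant mesangial arrays gave 78.4, 84.9 and 70.3, and *Enpep* entered the mesangial comparison through control array C alone, so that its log2 difference of -1.23 (adjusted p = 0.402) rests on that array.

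*Atp6ap2*, whose product also serves the proton pump of every cell, varied least of the 6 detected members, with group means from 155 to 228. Endothelial arrays labelled mutant gave 234, 235 and 216 and wild type arrays 196, 177 and 155, without overlap, and the log2 difference was 0.38 (standard error 0.11, adjusted p = 0.149). Mesangial arrays gave 188, 199 and 236 for mutant and 207, 216 and 219 for control mice, a difference of -0.0495 (adjusted p = 0.819). Podocyte arrays gave 182, 168 and 115 for mutant and 188, 212 and 179 for wild type mice, a difference of -0.34 (adjusted p = 0.461), with array C of the mutants the lowest. Genotypes overlapped in both of these cell types. None of its differences between control cell types passed the adjusted threshold with all arrays. Mesangial minus endothelial cells gave 0.29 (adjusted p = 0.0703), and 0.37 (adjusted p = 0.0355) without wild type endothelial array A.

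**Figure D4:**
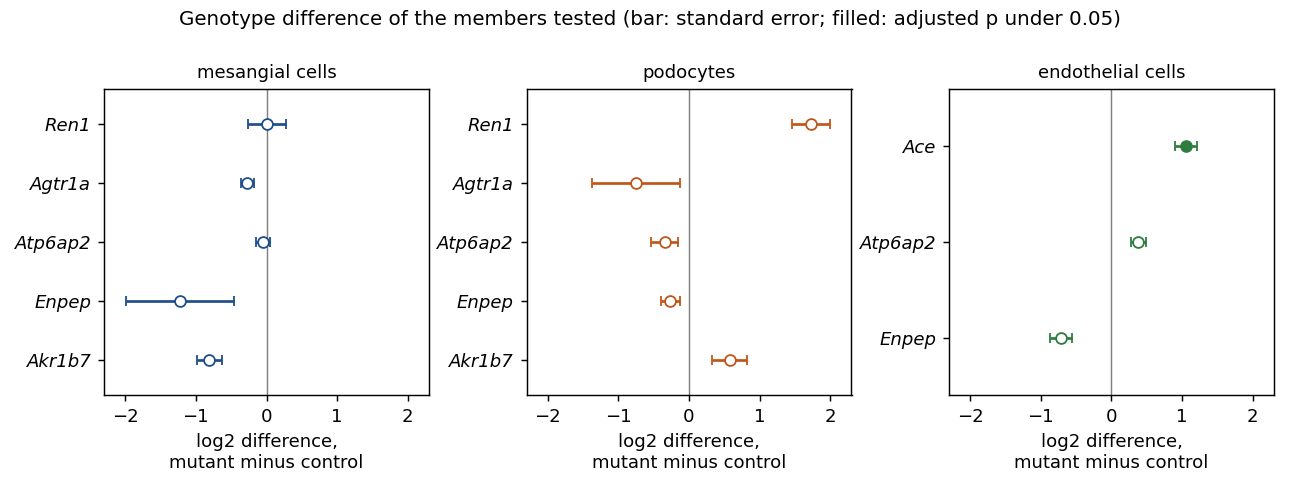
Log2 difference in signal, mutant minus control, for the members tested in each cell type, with bars for the standard error and filled points where the adjusted p was under 0.05. *Ace* in endothelial cells at 1.06 is the filled point, and *Ren1* in podocytes has the largest log2 difference at 1.73.

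The members' counts can be read against all transcript clusters. In mesangial cells 5 members were tested and 0 passed the adjusted threshold, 1 passed the study's screen and 3 did not overlap between genotypes. Among the 11457 transcript clusters tested there, the shares were 2.92%, 5.19% and 28.6%. In podocytes the same 5 members were tested, with 0 past the adjusted threshold, 1 past the screen and 2 without overlap, against shares of 0.0578%, 5.61% and 21.3% of 12113. In endothelial cells 3 members were tested, 1 passed the adjusted threshold, 2 the screen and 3 did not overlap, against 1.29%, 3.82% and 25.1% of 11330. At an unadjusted p under 0.05 there were 2 in mesangial cells, *Agtr1a* and *Akr1b7*, 2 in podocytes, *Ren1* and *Akr1b7*, and all 3 tested in endothelial cells, *Ace*, *Atp6ap2* and *Enpep*, against 21.7%, 14.3% and 18.5% of all transcript clusters tested. Members enter a comparison through the group in which they are bright, so these counts describe the genes and carry no test.

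Between control cell types 6 members were tested, *Ace* through wild type endothelial array A alone. 3 passed the adjusted threshold for podocytes minus mesangial cells, 4 for podocytes minus endothelial cells and 4 for mesangial minus endothelial cells, where 27.9%, 38.8% and 32.0% of 12537 transcript clusters did. For differences in the genotype effect 2 of 6 members passed for podocytes minus mesangial cells, 1 of 6 for endothelial minus mesangial cells and 2 of 6 for endothelial cells minus podocytes. The shares over 13523 transcript clusters were 0.717%, 1.07% and 2.11%. The comparisons share arrays with each other, so their calls are not separate evidence.

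The order of the group means can be set beside the spread of 3 arrays. For *Ren1* it ran from mutant podocytes (649) over mutant mesangial (296), control mesangial (289) and wild type podocyte arrays (197) to wild type (51.1) and mutant endothelial arrays (45.1), and the mutant and control mesangial means differed by less than the larger SD of the pair. For *Akr1b7* it was control mesangial (246), mutant podocyte (171), mutant mesangial (141), wild type podocyte (111), wild type endothelial and mutant endothelial (43.2), with mutant podocytes and mutant mesangial cells, and both endothelial groups, within an SD of each other. For *Agtr1a* it was control mesangial (2188), mutant mesangial (1821), wild type podocyte (731), mutant podocyte (567), wild type endothelial (85.7) and mutant endothelial (78.1), and the podocyte and the endothelial pairs lay within an SD. For *Enpep* it was wild type podocyte (3439), mutant podocyte (2875), control mesangial (298), wild type endothelial (101), mutant mesangial (77.8) and mutant endothelial (61.8), and control mesangial and wild type endothelial means lay within an SD, with mesangial array C far from A and B. For *Ace* mutant endothelial (199) and wild type endothelial (94.3) were followed by wild type podocyte (73.3), control mesangial (68.3), mutant podocyte (64.2) and mutant mesangial arrays (59.3), and these last 4 differed from their neighbours by less than an SD. For *Atp6ap2* neighbours in the order differed by less than an SD, except mutant endothelial (228) and control mesangial arrays (214).

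Promoter sequences are shown for *Ren1*, *Akr1b7* and *Ace*, the 3 members whose genotype difference itself differed between cell types. 8 of the 9 members matched the RefSeq promoter table of build GRCm38.p6, and *Agtr1a* was not matched. Each line holds the 250 bases before the start site, 5′ to 3′, for *Ren1* at chr1:133350424-133350673 on the plus strand, for *Akr1b7* at chr6:34412112-34412361 on the plus strand and for *Ace*, at the start of its longer form, at chr11:105967698-105967947 on the plus strand. Capitals mark matches, on either strand, to the TATA box TATAAA and the core of the cAMP response element TGACG, and no matches overlapped.
Ren1: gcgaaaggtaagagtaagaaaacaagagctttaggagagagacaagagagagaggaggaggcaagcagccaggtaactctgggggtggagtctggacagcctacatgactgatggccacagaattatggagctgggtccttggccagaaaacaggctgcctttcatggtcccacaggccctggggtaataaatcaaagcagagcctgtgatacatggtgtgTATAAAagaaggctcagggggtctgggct
Akr1b7: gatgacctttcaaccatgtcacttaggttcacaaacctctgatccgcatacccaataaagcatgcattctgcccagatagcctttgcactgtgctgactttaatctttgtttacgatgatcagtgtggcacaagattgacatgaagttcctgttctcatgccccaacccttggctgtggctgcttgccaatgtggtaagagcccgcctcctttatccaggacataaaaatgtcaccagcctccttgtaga
Ace: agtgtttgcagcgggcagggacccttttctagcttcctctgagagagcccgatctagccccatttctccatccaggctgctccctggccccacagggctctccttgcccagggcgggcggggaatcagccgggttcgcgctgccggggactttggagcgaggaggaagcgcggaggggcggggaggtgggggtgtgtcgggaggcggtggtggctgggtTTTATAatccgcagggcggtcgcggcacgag
The *Ren1* window held 1 TATA box 29 bases before the start. The *Ace* window held 1 TATA match on the minus strand, 31 bases before the start, and the *Akr1b7* window held neither motif. Of 32851 windows of this length in the table, 12.4% held the TATA box and 17.8% the cAMP response core. A match describes letters, not a bound site. GC content was 51.6% for *Ren1*, 46.8% for *Akr1b7* and 67.2% for *Ace*, and 86.5% of all windows had less than the last.

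Genes that control renin release and transcription were read from a list of 20. In mesangial cells 15 were tested, and 1 rose and 0 fell at the adjusted threshold, with 8 at an unadjusted p under 0.05, beside 2.92% and 21.7% of all transcript clusters, and a median log2 difference of -0.25 beside -0.0249 over all transcript clusters. *Ptgs2*, the cyclooxygenase whose prostaglandins stimulate renin release, was 337, 526 and 247 on mutant and 57.0, 62.7 and 57.4 on control mesangial arrays, without overlap, the controls all below the minimum. It rose by 2.58 on the log2 scale (standard error 0.26, adjusted p = 0.00843), a difference against dim signals, on arrays whose *Ren1* signals overlapped those of controls. In podocytes 16 were tested and 0 passed in limma, with 5 at an unadjusted p under 0.05 and 3 past the screen, all lower, beside 14.3% and 5.61% of all transcript clusters, and their median log2 difference was -0.23 beside -0.0400 over all transcript clusters. *Gja5*, a connexin gene of renin cells and endothelium, was 729, 533 and 313 on mutant and 1646, 919 and 999 on wild type podocyte arrays, lower where *Ren1* was higher, with -1.21 (adjusted p = 0.208). *Npr1*, the natriuretic peptide receptor, also passed the screen as lower, with -0.80 (adjusted p = 0.173). *Hoxd10*, a homeobox factor that binds the *Ren1* promoter, was 413, 221 and 403 on mutant and 253, 214 and 256 on wild type podocyte arrays, with overlap, and 62.8, 56.7 and 50.2 on wild type endothelial arrays. In endothelial cells 11 were tested and 0 passed either rule in limma, with 3 at an unadjusted p under 0.05. Of all transcript clusters tested there, 18.5% had such a p, 3.82% passed the screen and 1.29% the adjusted threshold. In podocytes 0.0578% passed the adjusted threshold.

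Between control cell types, 7 of 15 renin control genes were higher and 3 lower in podocytes than in endothelial cells at the adjusted threshold, and 5 were higher and 1 lower in mesangial than in endothelial cells. The shares called in either direction over all transcript clusters were 38.8% and 32.0%. *Hoxd10* was higher in mesangial than in endothelial cells by 2.06 on the log2 scale (standard error 0.15, adjusted p = 6.6e-06). *Ptger4*, a prostaglandin E2 receptor, was higher in mesangial than in endothelial cells by 3.10 on the log2 scale (standard error 0.0945, adjusted p = 3.13e-08). Both genes were below the minimum on every wild type endothelial array. Among the controls *Gja5* was highest on mesangial arrays, at 2764, 3222 and 2595. It was 1646, 919 and 999 on wild type podocyte arrays and 774, 562 and 792 on wild type endothelial arrays. *Ptgs2* was below the minimum on every podocyte and endothelial array. The difference in genotype effect passed the adjusted threshold for *Ptgs2*, at -2.59 on the log2 scale (standard error 0.27, adjusted p = 0.000134) for podocytes minus mesangial cells and -2.62 on the log2 scale (standard error 0.27, adjusted p = 9.69e-05) for endothelial minus mesangial cells, and for *Npr1*, at 1.12 on the log2 scale (standard error 0.21, adjusted p = 0.0237) for endothelial cells minus podocytes.

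A further 13 genes encode other angiotensin peptidases and receptors, and none passed the adjusted threshold for genotype in any cell type in limma, with 4 tested in each and 2 at an unadjusted p under 0.05 in endothelial cells and 0 elsewhere. The shares of all transcript clusters with such a p were 21.7% in mesangial cells, 14.3% in podocytes and 18.5% in endothelial cells. At the adjusted threshold they were 2.92%, 0.0578% and 1.29%. *Prcp*, the carboxypeptidase that cuts angiotensin II to angiotensin 1-7, passed the study's screen in endothelial cells. Its signals were 272, 122 and 230.4 on mutant and 70.6, 118 and 71.6 on wild type endothelial arrays, each mutant above each wild type array, with 1.23 on the log2 scale (standard error 0.31, adjusted p = 0.115). The mutant arrays in which *Prcp* was highest, A and C, were also the highest for *Ace*. *Mme*, the endopeptidase neprilysin, was 1643, 1759 and 1725 on wild type podocyte arrays, 129, 114 and 459 on control mesangial and 45.4, 31.9 and 32.1 on wild type endothelial arrays. It was higher in podocytes than in mesangial cells by 3.17 on the log2 scale (standard error 0.44, adjusted p = 0.000555). Control mesangial array C, again the highest of its group, makes that difference smaller. *Mas1*, the receptor for angiotensin 1-7, lay below 100 on all 18 arrays.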

How the data were processed

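RNA of sorted glomerular cells was amplified once by Ribo-SPIA and hybridized to 18 arrays, described in the series record as biological triplicates of 6 groups. The authors deposited a linear intensity per transcript cluster, which the sample records ascribe to RMA in Expression Console, whereas the methods name GeneSpring and the series record Exon arrays with GeneBASE. RMA quantile normalization pulls array totals together and background compresses folds of dim genes. A further deposited block, log2 of the intensity minus the row median, was not used. Every column used has its group from its name, and 0 columns were without a group. Columns could not be tied to single sample records, so p-values describe the spread between these arrays.

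Log2 intensities were compared by moderated linear models (limma 3.58.1, run in R 4.3.3), without covariates, over transcript clusters with at least 100 in at least 1 array of the comparison, with Benjamini-Hochberg adjustment over all of them and a threshold of 0.05. Genotypes were compared within each cell type, control cell types in 1 fit of 9 arrays, and differences in genotype effect in 1 fit of 18. The scripts were tested on simulated data. Median signals per array were 62.8 to 71.6, with 9697 to 10097 transcript clusters at 100 or more, and the number of arrays limits the precision. Members, gene lists and marker lists were chosen with earlier results of these data known. Genes like *Ren1* and *Akr1b7* were the 5 with the highest r, over 18 arrays and after subtracting group means. Alternatives were other signal minima, 1 fit of 18 arrays, an intensity trend with robust estimation, array medians subtracted, quantile normalization, a floor of 50, each array left out and the study's screen. Sequences came from RefSeq promoters of GRCm38.p6. Some genes and a reporter name are not reported here, and list counts and marker sums include list members that are not named.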

Additional observations from a re-analysis of the deposited data

Results flagged for a closer look

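A total of 5 tests found that the genotype difference of a member differed between cell types at an adjusted p under 0.05 in limma. For *Ren1* the mutant minus control log2 difference was 1.72 higher in podocytes than in mesangial cells, and endothelial cells minus podocytes gave -1.91. For *Akr1b7* it was 1.38 higher in podocytes than in mesangial cells. For *Ace* it was 1.24 higher in endothelial than in mesangial cells and 1.26 higher in endothelial cells than in podocytes. *Ace* was below 100 on every mesangial and podocyte array and *Ren1* on every endothelial array, so for these the comparison cell type gives a dim signal, in which a fold is compressed. No group held more than 3 arrays, so single arrays were not screened as outliers.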

How the results depend on the processing

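With 3 arrays a group the precision is low, and array background compresses the folds of dim genes such as *Ace*. Of 768 values of the 49 member results under an alternative, 702 kept their direction and their side of the threshold, 34 kept only their direction and lost the threshold, 16 passed it newly and 16 turned in sign. The cause of these moves was not tested. The members called for genotype went from 0 to 1 in mesangial cells, *Akr1b7*, with the minimum signal in all 3 arrays of a group, with all 18 arrays in 1 fit, with an intensity trend and robust estimation and by the study's screen, and lay between 0 and 1 with arrays left out. In podocytes they went from 0 to 1, *Ren1*, with 18 arrays in 1 fit and by the screen, and lay between 0 and 1 with arrays left out. In endothelial cells they went from 1 to 0 with no minimum signal, where more transcript clusters were tested, to 2 by the screen, and lay between 0 and 1 with arrays left out. For the difference in genotype effect, podocytes minus mesangial cells went from 2 to 0 with no minimum signal and to 1 with array medians subtracted and with quantile normalization, and lay between 0 and 2 with arrays left out. Endothelial minus mesangial cells went from 1 to 2 by the screen. Endothelial cells minus podocytes went from 1 higher and 1 lower to 2 higher and 1 lower by the screen. That comparison lay between 0 and 3 with arrays left out, where *Atp6ap2* reached an adjusted p of 0.0159 in limma.

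Signs turned for *Ren1* in mesangial cells with array medians subtracted (-0.00563) and with arrays left out (-0.15 to 0.29), and for *Atp6ap2* in mesangial cells with quantile normalization (0.00429) and with arrays left out (-0.14 to 0.0192). With arrays left out they also turned for *Agtr1a* in podocytes (-1.31 to 0.0729), for *Enpep* in mesangial minus endothelial controls (-0.13 to 1.40), and, in the difference in genotype effect, for *Ace* (-0.21 to 0.0955), *Enpep* (-0.0202 to 1.51) and *Agtr1a* (-1.04 to 0.34) in podocytes minus mesangial cells, for *Enpep* in endothelial minus mesangial cells (-0.48 to 1.05) and for *Agtr1a* in endothelial cells minus podocytes (-0.21 to 1.17). None of these passed the adjusted threshold. In endothelial cells minus podocytes the median over all transcript clusters was 0.11, and 0.21 with array medians subtracted and 0.00191 with quantile normalization. The share of calls that were higher was 88.1% there, against 96.0% and 70.5%, was 93.8% in endothelial cells against 81.2% with quantile normalization, 85.7% in podocytes against 75.0% with array medians subtracted, 39.2% for podocytes minus mesangial controls against 27.4% with array medians subtracted, 28.9% for its genotype difference against 47.6% with quantile normalization, and 66.2% for endothelial minus mesangial cells against 81.7% and 53.6%. Each member has a single transcript cluster, so the alternative of another cluster gave no value. No paired analysis was possible because the numbers in the sample titles run from 1 to 18 without repeating between groups and the columns carry none that match them.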

Other observations

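Smooth muscle markers, genes of the arteriole wall in which renin cells lie, were also read on mesangial arrays, where *Ren1* signals overlapped between genotypes. Their sum was 4493, 5304 and 5275 on mesangial arrays labelled mutant and 3727, 3776 and 3533 on controls, higher on each mutant array. *Rgs5* weighed most in that sum, with means of 2752 on mutant and 2249 on control mesangial arrays. In the mesangial comparison 2 of the 6, *Acta2* and *Tagln*, passed the study's screen as higher, beside 5.19% of all transcript clusters in either direction, and 0 passed the adjusted threshold in limma, with 4 at an unadjusted p under 0.05, beside 21.7% of all transcript clusters. Without overlap between genotypes 2 were higher, *Acta2* and *Rgs5*, and 1 lower, *Smtn*, at 176, 219 and 222 on mutant and 258, 299 and 238 on control mesangial arrays. *Acta2* was 811, 1689 and 1562 on mutant and 627, 680.4 and 539 on control mesangial arrays. *Akr1b7* was lower on the same mutant arrays. Renin control genes were also not uniform there. Of the 15 tested in mesangial cells, 6 were lower on every mutant array than on any control and 1, *Ptgs2*, was higher, beside 28.6% of all transcript clusters tested that did not overlap in either direction.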
